A study of Mus musculus with 9 samples.

Results

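Circadian clock genes were followed in 3T3-L1 adipocytes, mouse preadipocytes turned into fat cells in culture, after knockdown of the transcription factor Ebf1. The members are 10 genes chosen by symbol from the platform's probe table: Arntl (also called Bmal1), Clock, Per1, Per2, Per3, Cry1, Cry2, Dbp, Bhlhe40 and Bhlhe41. All 10 had a probe set and all 10 passed the filter on low signal, out of 18193 genes with a probe set and 12735 genes tested. The arrays fall into 3 groups of 3: cells carrying shEbf1 Hairpin 2, cells carrying shEbf1 Hairpin 1, and cells carrying a scrambled control hairpin. All groups received lentivirus as mature cells in 3 to 4 rounds of infection and stayed in puromycin at 5 µg/ml for 8 days or longer, so every group shares the vector and the drug. The labels describe 1 cell line and number the arrays as repeats without stating separate cultures, so p-values measure the spread between arrays, which may be technical. They give no hour of harvest, and each group is a single sampling of genes whose levels are known to cycle.

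The molecular clock is a feedback loop. The proteins of Arntl and Clock form a dimer that binds E-boxes and activates Per, Cry, Dbp and Bhlhe40, and the PER and CRY proteins in turn repress the dimer. Dbp drives further genes through D-boxes, while ROR and REV-ERB receptors set Arntl transcription through sites called ROREs. In fat tissue these genes are known to cycle over the day together with genes of lipid metabolism.

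Promoter windows are shown for 4 members that hold sites of the loop just described, with the matched letters in capitals. Each window spans a transcript start and has 300 bases, from RefSeq on build GRCm38.p6. The table held 12 windows for 8 of the 10 members. It had none for Per2 or Bhlhe40, so those genes were not searched. Per3, on the minus strand at chr4:151044616-151044915, is shown because it is a member that rose; its window has a pair of D-boxes (TTANGTAA, read on both strands) at positions -205 and -158 from the start.
Per3: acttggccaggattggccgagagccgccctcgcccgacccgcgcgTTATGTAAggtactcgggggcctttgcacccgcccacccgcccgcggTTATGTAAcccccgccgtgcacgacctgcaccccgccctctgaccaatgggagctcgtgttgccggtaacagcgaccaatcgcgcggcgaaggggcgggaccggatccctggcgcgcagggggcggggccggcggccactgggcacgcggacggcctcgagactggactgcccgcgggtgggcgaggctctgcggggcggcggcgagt
Arntl, on the plus strand at chr7:113207261-113207560, is shown for its RORE, which begins at position 27, counted from 1 at the start.
Arntl: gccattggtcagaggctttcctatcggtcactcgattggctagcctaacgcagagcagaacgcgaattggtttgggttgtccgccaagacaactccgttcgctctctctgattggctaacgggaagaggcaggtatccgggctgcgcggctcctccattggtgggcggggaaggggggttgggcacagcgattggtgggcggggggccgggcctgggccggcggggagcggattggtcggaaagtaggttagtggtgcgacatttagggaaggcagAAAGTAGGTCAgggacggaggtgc
Cry1, on the minus strand at chr10:85185005-85185304, is shown for an E-box (CACGTG) at position -60 next to the variant form (CACGTT, here on the other strand) at position -79.
Cry1: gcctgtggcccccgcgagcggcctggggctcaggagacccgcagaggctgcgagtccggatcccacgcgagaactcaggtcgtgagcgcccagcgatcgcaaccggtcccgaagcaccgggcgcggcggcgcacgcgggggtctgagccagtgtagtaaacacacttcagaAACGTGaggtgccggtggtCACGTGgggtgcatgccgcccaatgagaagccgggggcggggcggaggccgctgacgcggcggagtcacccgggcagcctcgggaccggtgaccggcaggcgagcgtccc
Bhlhe41, on the minus strand at chr6:145865371-145865670, has 1 E-box, at position -153.
Bhlhe41: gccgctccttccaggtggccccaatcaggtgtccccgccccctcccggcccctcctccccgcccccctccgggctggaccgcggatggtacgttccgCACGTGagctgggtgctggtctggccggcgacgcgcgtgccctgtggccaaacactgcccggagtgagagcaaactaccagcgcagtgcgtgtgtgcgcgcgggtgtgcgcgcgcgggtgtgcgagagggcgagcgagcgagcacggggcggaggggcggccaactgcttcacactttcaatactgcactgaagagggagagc
An E-box was found in 3 of the 12 member windows (1 each of Per1, Cry1 and Bhlhe41), against 7.15% of all 32851 windows. The E-box variant was found in 2 of the 12 (Cry1 and Cry2), against 4.68% of windows. A D-box was found in 1 of the 12, that of Per3, against 2.32%, and a RORE in 1 of the 12, of Arntl, against 0.384%. The cAMP response element (TGACGTCA) and a palindromic EBF motif were found in 0 of the 12 member windows, against 1.79% and 0.904% of all windows. Both strands were read for every motif, and no matched letters of different motifs overlapped in the windows shown. A match describes letters in a window and no more.

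The targeted gene checked the labels. Ebf1 signal was 8.90, 8.72 and 9.20 on the hairpin 2 arrays, 9.32, 9.54 and 9.45 on the hairpin 1 arrays, and 10.12, 10.15 and 10.31 on the scrambled arrays (RMA signal, log2 scale). No group overlapped another on this probe set, the brightest of 5. In a fit over all probe sets, 4 of the 5 fell with hairpin 2 and 3 of the 5 with hairpin 1. Between the hairpins, 3 of the 5 were lower with hairpin 2. Adipocyte markers with a probe set numbered 8, of which 7 passed the filter, and the exception was Lep. Adipoq and Fabp4 read 14.82 and 14.89 on scrambled arrays, near the highest values of the arrays, and did not pass against them. Pparg, the master regulator of fat cells, fell with both hairpins (-0.56 with hairpin 2, adjusted p = 9.07e-08, and -0.25 with hairpin 1, adjusted p = 0.000533), and the lipid droplet gene Cidec fell with hairpin 2 (-0.25, adjusted p = 0.00255). Among the 7 tested, 2 fell with hairpin 2, where 13.3% of all genes tested fell. With hairpin 1, 1 of the 7 fell, where 9.23% did, and 0 rose with either hairpin. Lpl (0.02 with hairpin 2 and 0.02 with hairpin 1), Cebpa (0.15 and 0.15) and Slc2a4 (-0.06 and 0.01) did not pass. Of 8 fibroblast and preadipocyte markers, 7 rose and 1 fell with hairpin 2, where 21.5% of all genes tested rose and 13.3% fell. With hairpin 1, 8 of 8 rose, where 23.7% of all genes did. The marker that fell was Dlk1 (-0.83, limma adjusted p = 0.00157), which rose by 0.70 with hairpin 1 (adjusted p = 0.00647). These values are from the brighter of its 2 probe sets, on which all 3 scrambled arrays read the same 9.47, without spread. The mean of the 8 markers per array lay between 12.2 and 12.3 with hairpin 2 and between 12.1 and 12.3 with hairpin 1. With the scrambled hairpin it lay between 11.1 and 11.4. The mean of 8 macrophage and leukocyte markers lay between 6.40 and 6.70 with hairpin 2, between 6.36 and 6.53 with hairpin 1 and between 6.48 and 6.63 with the scrambled hairpin, with Ptprc, Adgre1 and Itgam below the filter in signal. Within that list Cd68 had a mean of 6.84 with hairpin 2, 5.65 with hairpin 1 and 5.67 with the scrambled hairpin. Its means with hairpin 1 and the scrambled hairpin lie below the filter of 5.72. Cd68 was therefore tested only through its hairpin 2 signal, and no test of it is given. Laptm5, on the brightest of its 5 probe sets, fell with both (-1.82 and -1.22, limma adjusted p = 6.37e-05 and 0.00261). Its scrambled arrays were spread widely, at 10.78, 10.86 and 9.81, and its other probe sets were not examined. Of 5 endothelial markers only Kdr passed the filter. The part of these markers in the results below was not tested, and in bulk RNA fewer cells of a type and less RNA per cell cannot be told apart.

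Few clock genes passed the test. With hairpin 2, Bhlhe40 and Per3 rose and the other 8 members did not pass the test; with hairpin 1 the limma fit called 0 of 10 members. A call means an adjusted p below 0.05 in limma, fitted and adjusted by the Benjamini-Hochberg method over all 12735 genes. The 2 of 10 members called with hairpin 2 stand beside 34.8% of all genes tested (21.5% called higher and 13.3% lower). The 0 of 10 with hairpin 1 stand beside 33.0% of all genes (23.7% called higher and 9.23% lower). At an unadjusted p below 0.05, 4 members passed with hairpin 2 and 2 with hairpin 1, beside 42.2% and 42.1% of all genes. The median difference of the members was 0.02 log2 units with hairpin 2 and -0.03 with hairpin 1, where the medians over all genes tested were 0.02 and 0.07. Directly between the hairpins, hairpin 2 arrays read higher than hairpin 1 arrays for Bhlhe40 and Dbp, 2 of 10 members beside 29.1% of all genes (11.6% called higher and 17.4% lower). For hairpin 2 against scrambled the share of members called higher, 20%, was near the background. Single arrays decided some counts: without hairpin 1 repeat 1, Clock (-0.28) and Per3 (0.32) passed with hairpin 1, and Dbp did so without hairpin 1 repeat 2 (-0.27) or hairpin 2 repeat 2 (-0.20). The groups did not overlap for 3 members with hairpin 2 (Arntl, Per3 and Bhlhe40; 49.4% of all genes), for 3 with hairpin 1 (Per3, Cry2 and Dbp; 43.4%) and for 1 between the hairpins (Bhlhe40; 35.6%).

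**Figure D1:**
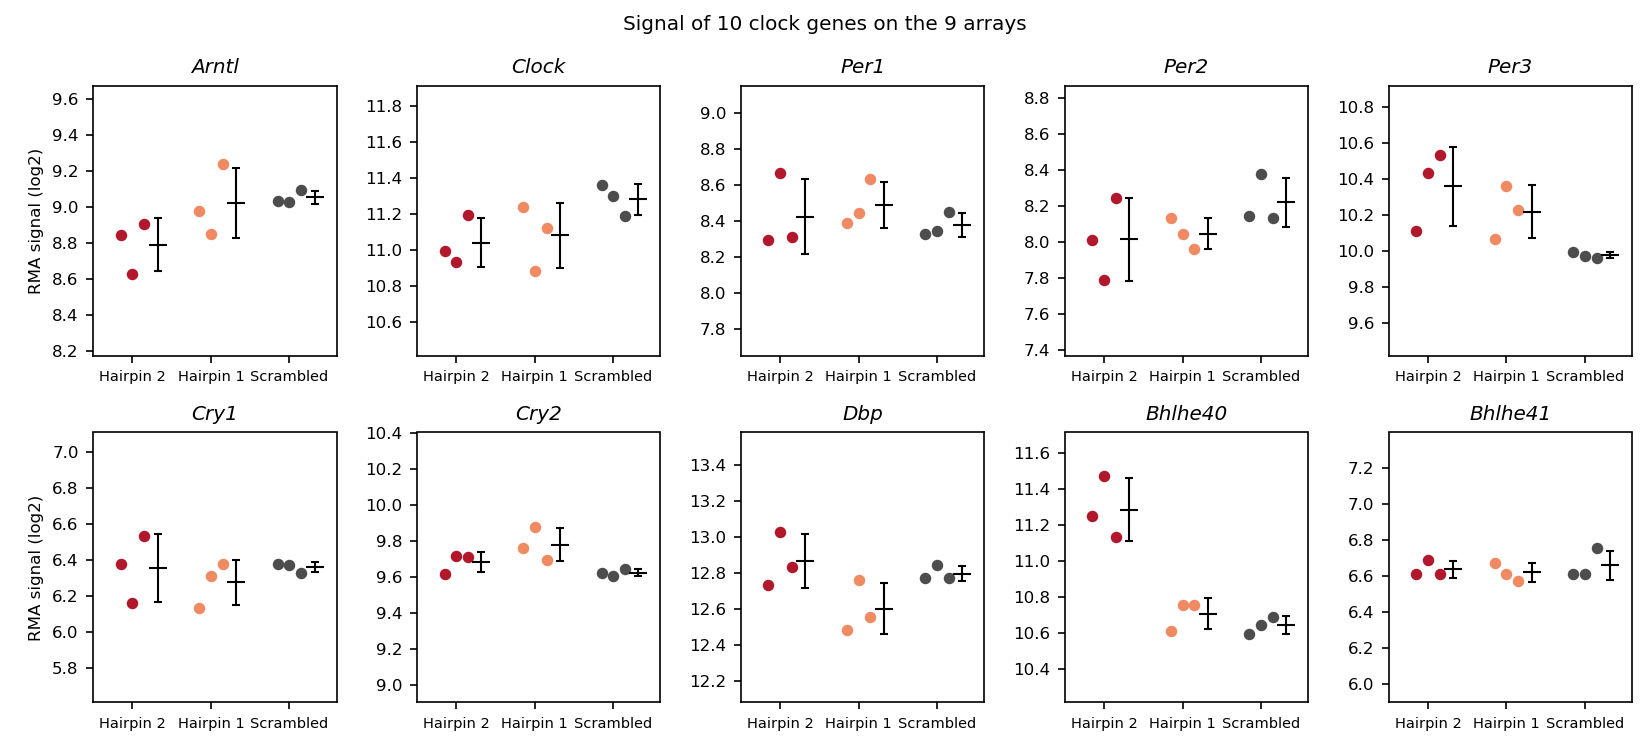
RMA signal (log2) of the 10 clock genes on each of the 9 arrays, on the probe set of highest mean signal for each gene; dots are arrays, and the bar beside them is the mean with its SD (n = 3). The 3 hairpin 2 arrays of Bhlhe40 lie between 11.13 and 11.47, above every other array, and the scrambled arrays of Per3 lie together at 9.96 to 9.99. Every panel spans the same number of log2 units.

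The loop's activators did not pass the test on their brightest probe sets. Arntl, which encodes BMAL1, the partner of CLOCK on DNA, read 8.84, 8.63 and 8.91 with hairpin 2, 8.98, 8.85 and 9.24 with hairpin 1 and 9.04, 9.03 and 9.10 with the scrambled hairpin. All hairpin 2 arrays lay below all scrambled arrays, and the hairpin 1 arrays overlapped both other groups. The difference was -0.26 with hairpin 2 (SE 0.107, limma adjusted p = 0.0707) and -0.03 with hairpin 1 (adjusted p = 0.858). Its 95% intervals ran from -0.49 to -0.04 and from -0.26 to 0.20; intervals here are per gene, without adjustment over genes. The hairpin 2 fall passed in 6 of 18 alternative settings. It did so without hairpin 1 repeat 2 or 3 (adjusted p = 0.0486 and 0.0475) and with quantile normalization (-0.29, adjusted p = 0.0458). It also passed with array weights (-0.25, adjusted p = 0.0379), 6-array fits and the replicate block. Between the hairpins it differed by -0.23 (adjusted p = 0.124), and this passed in 3 of 18 alternative settings: without hairpin 1 repeat 2 (-0.32, adjusted p = 0.0494), with the mean of probe sets (-0.27, adjusted p = 0.0457) and with array weights (-0.39, adjusted p = 0.00136). The other Arntl probe set, of lower signal, differed by -0.11 with hairpin 2 and by 0.19 with hairpin 1 (limma adjusted p = 0.611 and adjusted p = 0.28, over all probe sets).

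Clock encodes the partner of BMAL1. On its probe set of highest signal it read 10.99, 10.93 and 11.19 with hairpin 2, 11.24, 10.88 and 11.12 with hairpin 1 and 11.36, 11.30 and 11.19 with the scrambled hairpin. The hairpin 2 and scrambled arrays overlapped only at their edge, at 11.19. Hairpin 1 repeat 1 lay inside the scrambled range, and all hairpin 2 arrays lay inside the hairpin 1 range. The differences of -0.24 with hairpin 2 and -0.20 with hairpin 1 did not pass (limma adjusted p = 0.0609 and 0.119). The hairpin 2 difference passed without hairpin 1 repeat 1 or 2 or hairpin 2 repeat 3 (adjusted p = 0.0272 to 0.0301). The Clock probe set of next lower signal went the other way: 9.32, 9.57 and 9.64 with hairpin 2 and 9.31, 9.64 and 9.67 with hairpin 1, against 9.26, 9.10 and 9.10 with the scrambled hairpin. In the fit over all probe sets it rose by 0.36 with hairpin 2 (adjusted p = 0.0451) and by 0.39 with hairpin 1 (adjusted p = 0.0347). Its remaining 2 probe sets did not pass in any contrast. The direction of Clock differed between its probe sets, and with the mean of all 4 it was 0.03 with hairpin 2 and 0.11 with hairpin 1 (adjusted p = 0.86 and 0.372).

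Among the Period genes, which encode the repressors whose build-up times the loop, Per3 rose with hairpin 2. It read 10.11, 10.43 and 10.53 with hairpin 2, 10.07, 10.36 and 10.23 with hairpin 1, and 9.99, 9.97 and 9.96 with the scrambled hairpin. Every array of either Ebf1 hairpin read above every scrambled array, and the 2 hairpin groups overlapped. The rise was 1.30-fold with hairpin 2 (log2 difference 0.38, SE 0.106, limma adjusted p = 0.00992). With hairpin 1 the difference was 0.24 and did not pass (adjusted p = 0.0928, 95% interval 0.02 to 0.47), and the direct difference between the hairpins was 0.14 (adjusted p = 0.368, -0.09 to 0.37). The hairpin 2 call was lost without hairpin 2 repeat 3 (0.30, adjusted p = 0.0621), and held under the other 17 of 18 alternative settings.

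Per3 has 6 probe sets, more than any other member, all read on the same 9 arrays, so they are not replicates of the result. In the fit over all probe sets, 5 of the 6 rose with hairpin 2, beside 17.5% of all probe sets called, and 1 of the 6 rose with hairpin 1, beside 15.1%. All 6 differences were above 0 with each hairpin. The probe set of next lower signal read 8.69, 9.30 and 9.29 with hairpin 2, 8.60, 8.94 and 8.72 with hairpin 1 and 8.42, 8.36 and 8.45 with the scrambled hairpin. It rose by 0.69 with hairpin 2 (1.61-fold, adjusted p = 0.00332) and its difference was 0.34 with hairpin 1 (adjusted p = 0.141). The probe set that rose with both read 8.30, 8.51 and 8.71 with hairpin 2, 8.14, 8.54 and 8.25 with hairpin 1 and 7.75, 7.92 and 7.80 with the scrambled hairpin. Its rises were 0.68 (adjusted p = 0.00116) and 0.48 (adjusted p = 0.0166). The sixth probe set, at 5.90 on scrambled arrays and so near the array floor, differed by 0.16 and 0.15 and did not pass. Hairpin 2 repeat 1 was the lowest of that group on 5 of the 6 probe sets. With the mean of all 6 probe sets in place of the brightest, Per3 rose with hairpin 1 as well (0.28, adjusted p = 0.0447).

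**Figure D2:**
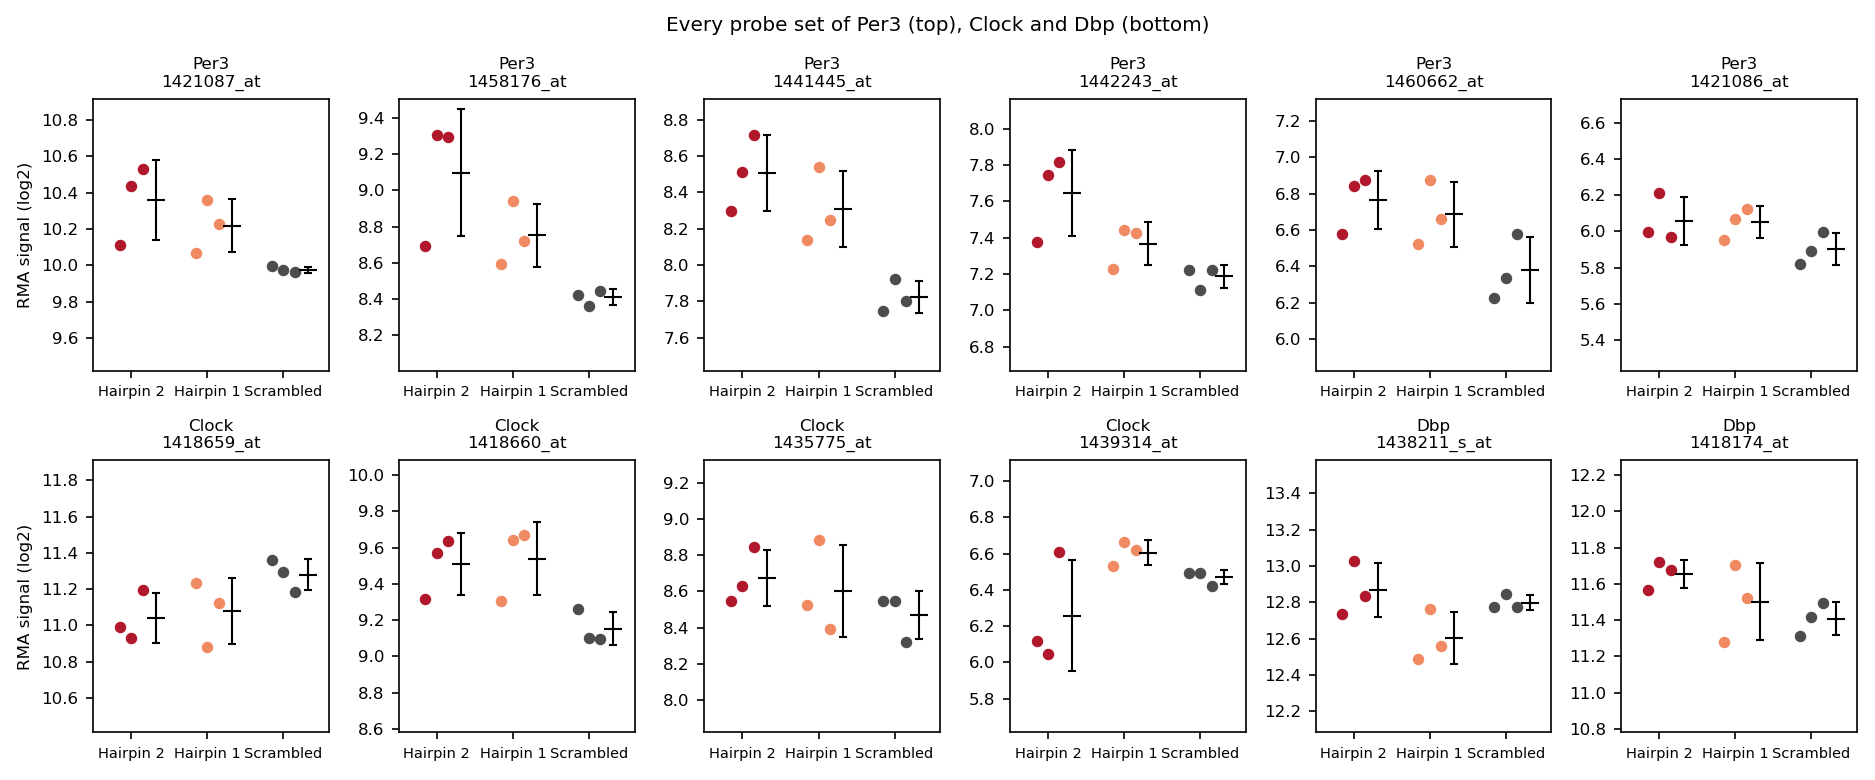
RMA signal (log2) on the 9 arrays for each probe set of Per3 (top row, by falling signal) and of Clock and Dbp (bottom row); dots are arrays, and the bar is the mean with its SD (n = 3). The Per3 panels share their direction, with 5 of 6 passing the test with hairpin 2, while the Clock panels do not, with differences of -0.24 and 0.36 on the first and second of them for hairpin 2.

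With all 9 arrays at equal weight, Per1 and Per2 did not pass in any contrast. With arrays weighted by quality, Per1 passed with hairpin 1 (0.24, adjusted p = 0.0112) and between the hairpins (-0.22, adjusted p = 0.0448), and Per2 with hairpin 1 (-0.24, adjusted p = 0.0145). Per1, the Period gene that responds fastest to outside signals, read 8.30, 8.67 and 8.31 with hairpin 2, 8.39, 8.44 and 8.64 with hairpin 1 and 8.33, 8.35 and 8.45 with the scrambled hairpin. Its differences were 0.05 (95% interval -0.18 to 0.28) and 0.11 (-0.12 to 0.35). Per2 read 8.01, 7.79 and 8.24 with hairpin 2, 8.13, 8.04 and 7.96 with hairpin 1 and 8.14, 8.38 and 8.13 with the scrambled hairpin. Its differences were -0.21 (-0.45 to 0.04) and -0.17 (-0.42 to 0.07), with overlap of all groups; the hairpin 2 difference passed without hairpin 2 repeat 3 (-0.32, adjusted p = 0.0395). Its remaining 2 probe sets differed by 0.08 and 0.07 with hairpin 2, opposite in sign, and did not pass.

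The cryptochromes encode the repressors that join PER to block CLOCK and BMAL1. Cry2 read 9.62, 9.72 and 9.71 with hairpin 2, 9.76, 9.88 and 9.70 with hairpin 1 and 9.63, 9.61 and 9.65 with the scrambled hairpin. The hairpin 1 arrays lay above all scrambled arrays by a small margin, but the difference of 0.15 did not pass (adjusted p = 0.166, -0.02 to 0.33), nor did that of 0.06 with hairpin 2 (adjusted p = 0.655, -0.12 to 0.23). Cry1 had low signal, at 6.38, 6.16 and 6.54 with hairpin 2, 6.13, 6.31 and 6.38 with hairpin 1 and 6.38, 6.38 and 6.33 with the scrambled hairpin. Its differences were -0.0035 (-0.22 to 0.21) and -0.09 (-0.30 to 0.13).

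Dbp, the D-box activator often read as the clock's output, had high signal. It read 12.74, 13.03 and 12.83 with hairpin 2, 12.49, 12.76 and 12.56 with hairpin 1 and 12.77, 12.85 and 12.77 with the scrambled hairpin. Against scrambled arrays it did not pass with hairpin 2 (0.07, adjusted p = 0.541) or with hairpin 1 (-0.20, adjusted p = 0.0586), although each hairpin 1 array lay below each scrambled array. Hairpin 2 exceeded hairpin 1 by 0.26 (1.20-fold, SE 0.0754, adjusted p = 0.015), with the second hairpin 1 array inside the range of the hairpin 2 arrays. That call was lost without hairpin 1 repeat 3 (0.24, adjusted p = 0.0533) or hairpin 2 repeat 2 (0.18, adjusted p = 0.0848), with the mean of both probe sets (0.21, adjusted p = 0.0779) and without limma's variance trend (adjusted p = 0.0533). The other Dbp probe set read 11.57, 11.72 and 11.67 with hairpin 2, 11.28, 11.70 and 11.52 with hairpin 1 and 11.31, 11.42 and 11.49 with the scrambled hairpin. Its difference with hairpin 1 was 0.09, opposite in sign to that of the brighter probe set, and it did not pass in any contrast.

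Bhlhe40 (DEC1), a repressor that competes for E-boxes and is itself switched on through them, changed most among the members. It read 11.25, 11.47 and 11.13 with hairpin 2, 10.61, 10.76 and 10.76 with hairpin 1 and 10.59, 10.65 and 10.69 with the scrambled hairpin. All hairpin 2 arrays were above all others, and the hairpin 1 and scrambled arrays overlapped. With hairpin 2 it rose 1.56-fold (log2 difference 0.64, SE 0.0876, 95% interval 0.46 to 0.83, limma adjusted p = 2.68e-05), ranking 683 from the highest difference of all genes tested. With hairpin 1 the difference was 0.06 (adjusted p = 0.618, -0.12 to 0.25). The direct difference between the hairpins was 0.58 (1.49-fold, adjusted p = 0.000127). Both calls held under all 18 alternative settings, and with 1 array left out the difference from scrambled ran from 0.55 to 0.72. Bhlhe40 has a single probe set, so no second measure of it was at hand.

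Its paralog Bhlhe41 (DEC2) read 6.61, 6.69 and 6.61 with hairpin 2, 6.68, 6.61 and 6.58 with hairpin 1 and 6.61, 6.61 and 6.76 with the scrambled hairpin, a low signal not far above the filter of 5.72. The differences were -0.02 (-0.20 to 0.16) and -0.04 (-0.22 to 0.14), and no contrast passed. Over all members the 95% intervals, without adjustment over genes, reached 0.16 to 0.24 log2 units to either side. Differences smaller than that were not resolved with 3 arrays a group. A larger one could also fail the adjusted test, as that of Arntl with hairpin 2 did (-0.26, limma adjusted p = 0.0707).

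**Figure D3:**
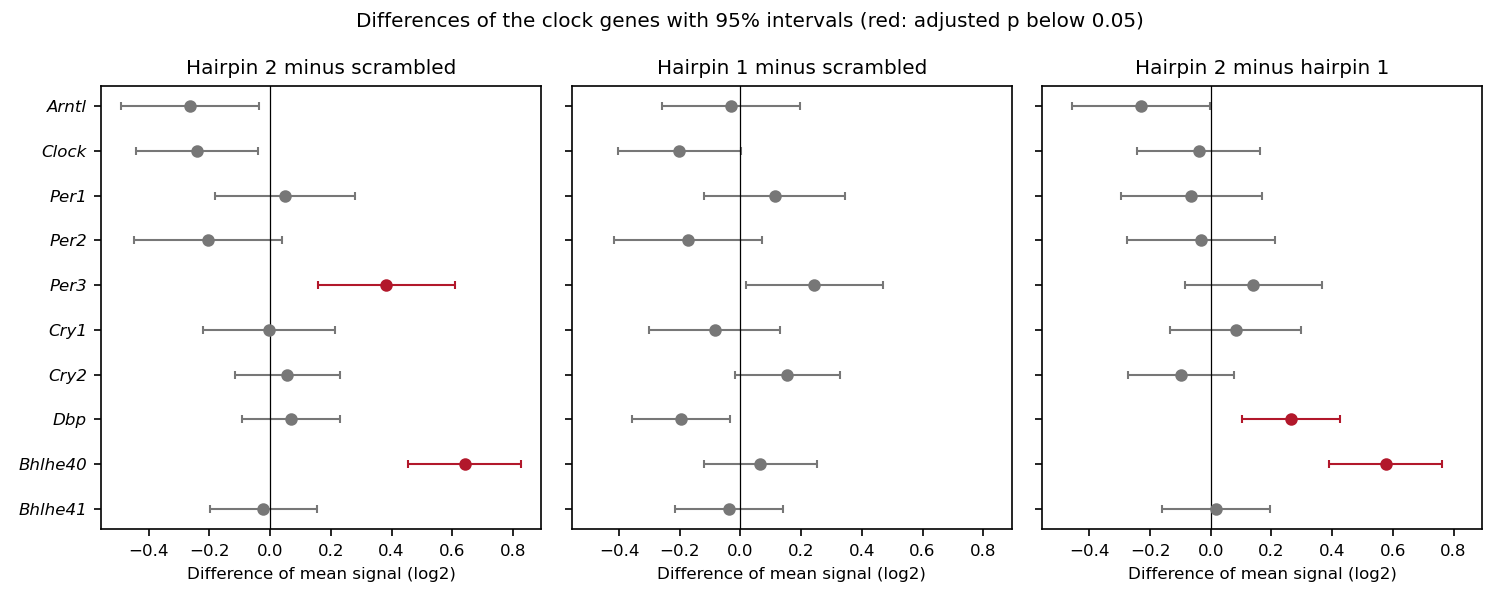
Differences between group means (log2) for the 10 clock genes in the 3 contrasts; dots are limma estimates, bars are 95% intervals without adjustment over genes, and red marks an adjusted p below 0.05. Red dots are Per3 (0.38) and Bhlhe40 (0.64) for hairpin 2 minus scrambled, and Dbp (0.26) and Bhlhe40 (0.58) for hairpin 2 minus hairpin 1; there are none for hairpin 1 minus scrambled.

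The wider clock was read from 3 lists of 30 genes in all, of which 27 were analysed here and 23 passed the filter and were tested. With hairpin 2, 3 of the 23 were called higher and 5 lower (34.8% of all genes were called). With hairpin 1, 6 were called higher and 3 lower (33.0% of all genes). The median difference was -0.02 with each, beside 0.02 and 0.07 over all genes. The comparisons with the scrambled hairpin share the same 3 scrambled arrays.

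Of the receptors of the second loop and the paralogs of clock factors, 8 were tested: 1 was lower with hairpin 2, while with hairpin 1 there was 1 call each way. Nfil3, the repressor that occupies the same D-boxes as DBP, fell with both. It read 8.07, 8.01 and 8.06 with hairpin 2 and 8.05, 8.28 and 8.36 with hairpin 1, against 8.56, 8.66 and 8.73 with the scrambled hairpin. The falls were -0.60 (1.52-fold, SE 0.0955, adjusted p = 0.000115) and -0.42 (1.34-fold, adjusted p = 0.00325). Rora, whose receptor activates Arntl through ROREs, rose by 0.48 with hairpin 1 (9.92, 10.07 and 10.07, against 9.49, 9.55 and 9.57 with the scrambled hairpin; adjusted p = 0.000703). It differed by 0.16 with hairpin 2 (adjusted p = 0.185). With the mean of its probe sets the hairpin 1 call was lost (0.13, adjusted p = 0.137) and the hairpin 2 difference turned to -0.14 (adjusted p = 0.114). The REV-ERB genes Nr1d1 and Nr1d2, which repress Arntl, differed by 0.05 and -0.05 with hairpin 2 and by 0.13 and -0.13 with hairpin 1, and neither passed; nor did Tef, Hlf, Rorb or Arntl2.

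Of 10 tested genes for proteins that modify or bind clock proteins, hairpin 2 gave 2 calls higher and 2 lower, and hairpin 1 gave 3 higher and 1 lower. Timeless, which in mammals protects replication forks and whose fly relative is a clock gene, rose by 0.49 with hairpin 2 (8.12, 8.21 and 8.24, against 7.61, 7.74 and 7.75 with the scrambled hairpin; adjusted p = 0.000392) and its difference was 0.14 with hairpin 1 (adjusted p = 0.253), which passed with the mean of its probe sets (0.21, adjusted p = 0.0322). Btrc, a ubiquitin ligase subunit that recognizes phosphorylated PER, rose by 0.51 with hairpin 1 (adjusted p = 0.00261) and its difference was 0.23 with hairpin 2 (adjusted p = 0.13). Cipc, a repressor that binds CLOCK, fell with hairpin 1 by 0.32 (adjusted p = 0.0131) and its difference was 0.10 with hairpin 2 (adjusted p = 0.445). The Btrc and Cipc calls were lost with the mean of their probe sets (0.11 and -0.12, adjusted p = 0.242 and 0.277), and that of Cipc also without hairpin 1 repeat 3 or scrambled repeat 2 (adjusted p = 0.0594 to 0.0765). Sirt1, a deacetylase that acts on clock proteins, fell with hairpin 2 (-0.58, adjusted p = 0.0285). Without hairpin 2 repeat 1, hairpin 2 repeat 2 or scrambled repeat 2, Sirt1 no longer passed (adjusted p = 0.104 to 0.14), nor without the variance trend (adjusted p = 0.0516).

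Kinase genes gave calls near the threshold. Csnk1e, which encodes a casein kinase that marks PER for degradation, fell by 0.31 with hairpin 2 (9.774, 10.004 and 9.864, against 10.18, 10.13 and 10.27 with the scrambled hairpin; adjusted p = 0.0288). With hairpin 1 it rose by 0.29 (10.23, 10.57 and 10.64; adjusted p = 0.0441). The hairpin 2 call was lost without repeat 1 or 3 of hairpin 2 or of the scrambled group (adjusted p = 0.0702 to 0.121). The hairpin 1 call was lost without any 1 of 7 arrays, all but hairpin 1 repeat 1 and hairpin 2 repeat 2 (adjusted p = 0.0518 to 0.201). Gsk3b, another kinase of clock proteins, rose by 0.18 with each hairpin (adjusted p = 0.0476 and 0.0469). Those calls were lost without any 1 of 6 arrays for hairpin 2 (adjusted p = 0.0594 to 0.18; hairpin 1 repeats 1 and 2 and hairpin 2 repeat 2 could be left out) and of 7 arrays for hairpin 1 (adjusted p = 0.0534 to 0.172; the same 2 arrays as for Csnk1e could be left out). With the mean of probe sets the hairpin 1 call of Csnk1e (0.14, adjusted p = 0.136) and both Gsk3b calls (adjusted p = 0.164 with hairpin 2 and 0.162 with hairpin 1) were lost. The hairpin 1 calls were also lost with no low filter, quantile normalization, equal medians, no trend and 6-array fits, so that over all alternatives Csnk1e passed with hairpin 1 in 5 of 18 and Gsk3b in 4 of 18, and Gsk3b passed with hairpin 2 in 8 of 18.

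Of 5 tested output genes, hairpin 2 gave 1 call higher and 2 lower, and hairpin 1 gave 2 higher and 1 lower. Usp2, a deubiquitinase gene that cycles in many tissues, rose with both: 8.65, 8.95 and 8.84 with hairpin 2 and 8.51, 8.74 and 8.78 with hairpin 1, against 7.95, 8.12 and 8.21 with the scrambled hairpin. The rises were 0.72 (1.65-fold, SE 0.108, adjusted p = 6.63e-05) and 0.58 (1.498-fold, adjusted p = 0.000629). Nampt, the rate-limiting enzyme of NAD salvage, fell with both, to 12.54, 12.45 and 12.52 with hairpin 2 and 12.71, 12.73 and 12.73 with hairpin 1, against 12.91 on each scrambled array. The falls were -0.40 (adjusted p = 4.07e-06) and -0.18 (adjusted p = 0.00641); the hairpin 1 call was lost with the mean of its probe sets (-0.17, adjusted p = 0.0692). Wee1, a kinase that holds back entry into mitosis, fell by 0.44 with hairpin 2 (adjusted p = 0.00395) and its difference was -0.14 with hairpin 1 (adjusted p = 0.324). Noct, the rhythmic phosphatase nocturnin, rose by 0.31 with hairpin 1 (adjusted p = 0.00468) and its difference was -0.10 with hairpin 2 (adjusted p = 0.345).

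**Figure D4:**
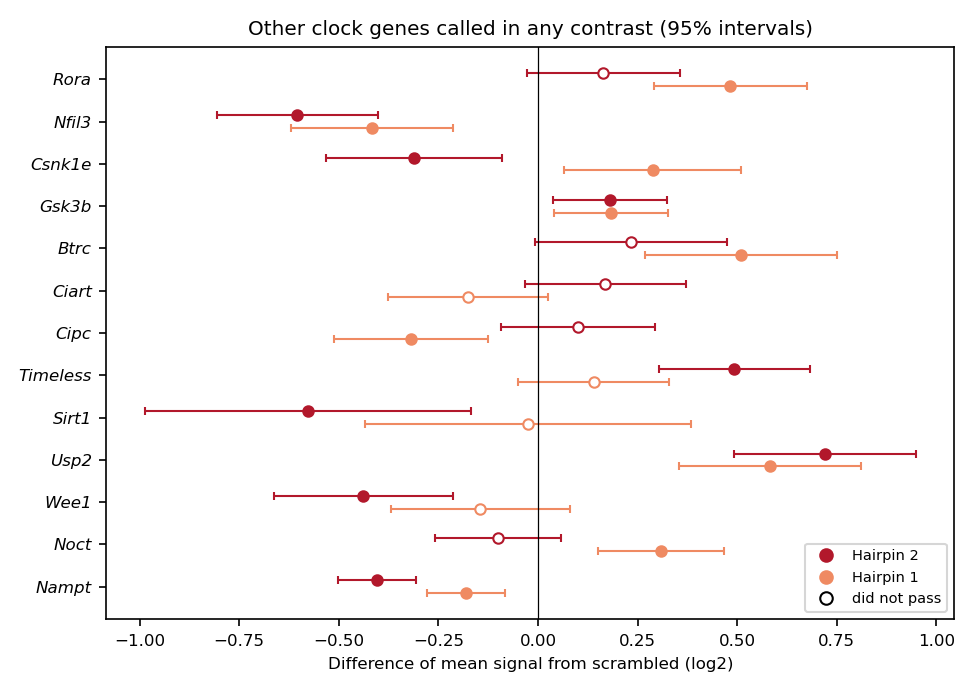
Differences from scrambled (log2) with hairpin 2 and hairpin 1 for the 13 other clock genes called in at least 1 contrast; dots are limma estimates, bars are 95% intervals without adjustment over genes, and open dots did not pass. Nfil3 (-0.60 and -0.42) and Nampt (-0.40 and -0.18) lie below 0 with both hairpins, Usp2 (0.72 and 0.58) above 0 with both, and Csnk1e (-0.31 and 0.29) on opposite sides.

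Genes with the profile most like that of Dbp over the 9 arrays, after each gene's scrambled mean was taken off, were Mtor, Gigyf2 and Urb1, at a root mean square difference of 0.049, 0.053 and 0.056 log2 units, where the median gene was at 0.251. For Arntl they were Apex2, Ppm1g and Foxh1, at 0.066, 0.071 and 0.077, where the median was 0.269. Of these neighbours only Apex2 passed against the scrambled hairpin, with hairpin 2 (-0.26, limma adjusted p = 0.0363).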

How the data were processed

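Expression was measured on 9 arrays, 3 for each group. Per the labels' protocols, total RNA was amplified with a NuGEN kit and labelled with biotin. The authors deposited log2 values, 1 for each of 45101 probe sets and array, made with RMA per the submitters' processing notes; RMA subtracts background, equalizes arrays and summarizes probes, so small differences near the floor or ceiling shrink. With arrays, their number limits the precision. Of the probe sets, 64 controls were left out, and 34945 with a single symbol were used; 0 value columns had no sample. Each gene was represented by its probe set of highest mean (23 probe sets belong to the 10 members). Genes with a mean at or above the 30th percentile (5.72) were tested, 12735 of 18193. One limma 3.58.1 model (R 4.3.3; lmFit, eBayes with trend) covered 3 groups and 3 contrasts, two-sided, with Benjamini-Hochberg adjustment over all genes; a second fit covered all probe sets. The chain was tested on simulated data. The members, lists, naming rule (all members, listed genes called in any contrast, Ebf1, and 3 nearest profiles for Dbp and for Arntl), tests and motifs were chosen with earlier results of these data known. Entrez identifiers of all 10 members were found in RefSeq's table for GRCm38.p6; the build behind the array values is not given in the sources used here. Alternatives were probe set averaging, the low filter, quantile normalization, equal medians, array weights, eBayes without trend, 6-array fits, a replicate block and leaving out each array.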

Additional observations from a re-analysis of the deposited data

Results flagged for a closer look

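Some clock genes differed between the hairpins, by the limma contrast of hairpin 2 against hairpin 1 with its adjusted p over all genes. The contrast called 2 of 10 members, beside 29.1% of all genes. Bhlhe40 was higher with hairpin 2 by 0.58 (adjusted p = 0.000127) and Dbp by 0.26 (adjusted p = 0.015). Dbp passed against the scrambled hairpin with neither. Of the 23 other clock genes tested, 3 were higher and 6 lower with hairpin 2, beside 29.1% of all genes called. Higher were Cipc by 0.42 (9.39 ± 0.11 on hairpin 2 and 8.97 ± 0.085 on hairpin 1 arrays, SD, n = 3 a group; adjusted p = 0.00245), Timeless by 0.35 (adjusted p = 0.00732) and Ciart, a gene for a repressor of the CLOCK dimer, by 0.34 (7.17 ± 0.15 and 6.83 ± 0.089; adjusted p = 0.0122). Ciart passed against the scrambled hairpin with neither. Lower were Csnk1e by -0.60 (9.88 ± 0.12 and 10.48 ± 0.22; adjusted p = 0.000435), Noct by -0.41 (10.73 ± 0.069 and 11.14 ± 0.053; adjusted p = 0.000659), Rora by -0.32 (adjusted p = 0.0145) and Nampt by -0.22 (adjusted p = 0.00183). Also lower were Sirt1 by -0.55 (adjusted p = 0.042) and Wee1 by -0.29 (adjusted p = 0.0483).

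Some of these differences rest on single arrays. Dbp was lost without hairpin 1 repeat 3 or hairpin 2 repeat 2 (adjusted p = 0.0533 to 0.0848), and so was Ciart (adjusted p = 0.0563 to 0.0571). Rora was lost without hairpin 1 repeat 3 or hairpin 2 repeat 1 (adjusted p = 0.0577 to 0.0868). Sirt1 was lost without repeat 1 or 3 of hairpin 1, repeat 1 or 2 of hairpin 2 or scrambled repeat 1 (adjusted p = 0.0509 to 0.166). Wee1 was lost without any hairpin 1 repeat, any scrambled repeat or hairpin 2 repeat 2 (adjusted p = 0.0581 to 0.228). With the mean of all probe sets, Timeless (0.098, adjusted p = 0.319), Nampt (-0.15, adjusted p = 0.108) and Dbp (0.21, adjusted p = 0.0779) were lost. Sirt1 has 1 probe set, so its difference stayed at -0.55 in that setting, but its adjusted p moved to 0.0597. Sirt1 was also lost with no low filter, quantile normalization, equal medians or no trend (adjusted p = 0.0586 to 0.0794), and Wee1 with no low filter, quantile normalization, equal medians or 6-array fits (adjusted p = 0.0684 to 0.0893). Over all alternatives Sirt1 passed in 7 of 17 and Wee1 in 7 of 18.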

How the results depend on the processing

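Calls of members with hairpin 1 depended on the processing. Their count of 0 became 1 with the mean of all probe sets (Per3), and 1 with quantile normalization, equal medians, 6-array fits or the replicate block (Dbp, lower), and 5 with array quality weights (Clock, Per1, Per2, Per3 and Dbp); without 1 array it ran from 0 to 2. The count of 2 with hairpin 2 became 3 with quantile normalization, which added a fall of Arntl. It became 4 with array weights, 6-array fits or the replicate block, which added falls of Arntl and Clock. Without 1 array it ran from 2 to 4. Between the hairpins the 2 became 4 with array weights (adding Arntl and Per1, both lower) and 1 without the trend, and ran from 1 to 3. Other clock genes called numbered 9 with hairpin 1, 5 with the mean of probe sets and 16 with array weights (6 to 10 without 1 array); 8 with hairpin 2 (5 to 8); and 9 between the hairpins, 14 with weights (5 to 10). All genes called came to 7460 with hairpin 1 and 5990 between hairpins with weights; without 1 array they ran from 3081 to 5431 and from 2883 to 4677. Quantile normalization turned the hairpin 1 split of 3023 higher of 4199 called into 2454 of 4157. Member probe sets called in any contrast numbered 8, and 3 to 10 without 1 array.

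Signs turned only for members that passed in neither fit. With the mean of probe sets these were Arntl (0.081) and Clock (0.11) with hairpin 1, Clock with hairpin 2 (0.026), and Bhlhe41 with hairpin 1 (0.022) and between hairpins (-0.026). Quantile normalization turned Bhlhe40 with hairpin 1 (-0.010) and, between hairpins, Clock (0.0052) and Per2 (0.013). Array weights turned Arntl (0.15) and Cry1 (0.0023) with hairpin 1, Cry1 with hairpin 2 (0.0024) and Per2 between hairpins (0.042). Without 1 array the ranges that crossed 0 were, with hairpin 1, Arntl (-0.14 to 0.054) and Bhlhe41 (-0.066 to 0.0096); with hairpin 2, Per1 (-0.072 to 0.11), Cry1 (-0.093 to 0.095), Dbp (-0.012 to 0.13) and Bhlhe41 (-0.048 to 0.026); and between hairpins, Clock (-0.14 to 0.038), Per1 (-0.19 to 0.0083), Per2 (-0.15 to 0.081), Cry1 (-0.0073 to 0.18) and Bhlhe41 (-0.0096 to 0.044). The cause was not tested. Deviations of same-numbered arrays from their group means correlated at -0.29 to 0.25, with 3 of 9 pairs over 0.1. Only 1 of 9 arrays correlated best with its own number in both other groups. With 3 arrays a group these values cannot decide whether same-numbered arrays were handled together, and that was not tested.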
